A study of Mus musculus with 9 samples.

Results

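Ly6a, Ly6c1, Ly6c2, Ly6e and Ly6k are the Ly6 surface antigen genes examined here in activated CD8 T cells of 3 transnuclear clones, 5 of the 24060 genes in the expression table. They were taken by gene symbol from that table, and their levels in the clones were known when they were picked, so the differences between clones in these 5 genes are given as a description without a test. All 5 had a maximum above 1 TPM (a transcript level scaled for transcript length and for the library total), as did 11330 genes in all. Ly6c1 passed that minimum only through the 3 R7-I libraries and 1 R7-II library.

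The libraries were made from mice of the lines R7-I, R7-II and R7-III, in which every line descends from the nucleus of 1 CD8 T cell specific for the Toxoplasma gondii antigen ROP7 and so stands for a single T cell receptor. All mice were on the BALB/c background with functional Rag2, and their ages are not given in the sources used here. Splenocytes of all 3 lines spent a night in medium holding IL-2 (10 ng/ml) and the ROP7 peptide (10 µM), and live CD8+ cells binding the ROP7 tetramer were sorted for polyA RNA-seq, with 3 libraries per clone. There was no library from resting cells among the 9 used here, so each comparison is between activated clones. The labels call the libraries biological replicates without saying that they came from separate mice, so the p-values given for other genes measure the spread between these libraries.

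Ly6 proteins are small, cysteine-rich surface molecules that share a fold held by disulphide bonds and are mostly tethered to the membrane by a glycosylphosphatidylinositol (GPI) anchor. In T cells they are used as markers of differentiation and activation: Ly6a encodes Sca-1, which rises with activation and with interferon, while Ly6c1 and Ly6c2 encode the Ly6C antigens found on memory CD8 T cells and on monocytes. Ly6e encodes TSA-1, first described on thymocytes and also inducible by interferon, and Ly6k is known mainly from male germ cells, where its protein pairs with Tex101.

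The 5 genes lie together on chromosome 15 (mm10, positions from RefSeq). In order along the chromosome they are Ly6k (74796874 to 74799968, minus strand), Ly6e (74955025 to 74959904, plus strand), Ly6a (74994877 to 74998031, minus strand), Ly6c1 (75044018 to 75048920, minus strand) and Ly6c2 (75108161 to 75112066, minus strand). The start of the Ly6c1 and Ly6c2 coding sequences is shown because the 2 genes are near copies, which bears on how reads could be divided between them. The first 120 coding bases of the principal transcripts of GENCODE M21 hold 6 of the 9 positions at which the pair differs, and are written 5′ to 3′ with the bases that differ in capitals.
Ly6c1: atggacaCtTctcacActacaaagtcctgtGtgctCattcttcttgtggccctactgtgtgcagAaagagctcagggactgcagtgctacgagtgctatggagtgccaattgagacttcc
Ly6c2: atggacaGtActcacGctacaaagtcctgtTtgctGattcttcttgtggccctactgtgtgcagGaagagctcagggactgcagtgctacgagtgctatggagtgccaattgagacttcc
Over all 393 coding bases, without the stop codon, the pair had 384 identical positions and 9 substitutions, an identity of 97.7%. Of these 393 coding bases, 188 lay in stretches of 100 bases or more that were identical in both genes, where a read that long could not be assigned to either. Over whole transcripts, 114 of the 767 distinct windows of 100 bases in Ly6c2 (14.9%) and 178 of 1756 in Ly6c1 (10.1%) also occurred in another gene. The values of Ly6c1 and Ly6c2 are therefore given separately and as a sum, and the division between them is uncertain. The mice were BALB/c and the reference is C57BL/6J.

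The other members were less alike. The coding sequence of Ly6a was 81.8% identical to that of Ly6c1 and 81.6% to that of Ly6c2, while Ly6e matched the other 4 members at 47.8 to 53.5% and Ly6k at 47.2 to 47.8%. No window of 100 bases in Ly6e occurred in another gene, and for Ly6a 19 of 1311 (1.45%) did, all in Ly6c1. In Ly6k 135 of 730 windows (18.5%) also occurred in the gene Gm17189, none of them within the 462 coding bases of Ly6k. The search covered both strands and did not record which of them matched. The library kit does not mark strand, so reads of Ly6k and of Gm17189 within those windows cannot be told apart.

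Over the 9 libraries the 5 genes differed widely in level. Mean Ly6e was 171 TPM, above 91.5% of the genes tested, Ly6a was 19.5 TPM (percentile 46.8), Ly6k 5.60 TPM (23.6), Ly6c2 3.85 TPM (19.2) and Ly6c1 1.08 TPM (6.85). In R7-I the order of clone means was Ly6e, Ly6a, Ly6k, Ly6c2 and Ly6c1, and only the ranges of the last pair overlapped. In R7-II the order was the same, but the ranges of Ly6a and Ly6k, and of Ly6k and Ly6c2, overlapped. In R7-III, Ly6k came after Ly6c2, and its range overlapped that of Ly6c1. TPM keeps no read depth, so no counting error can be given for these levels, and those near 1 TPM are the least certain.

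**Figure D1:**
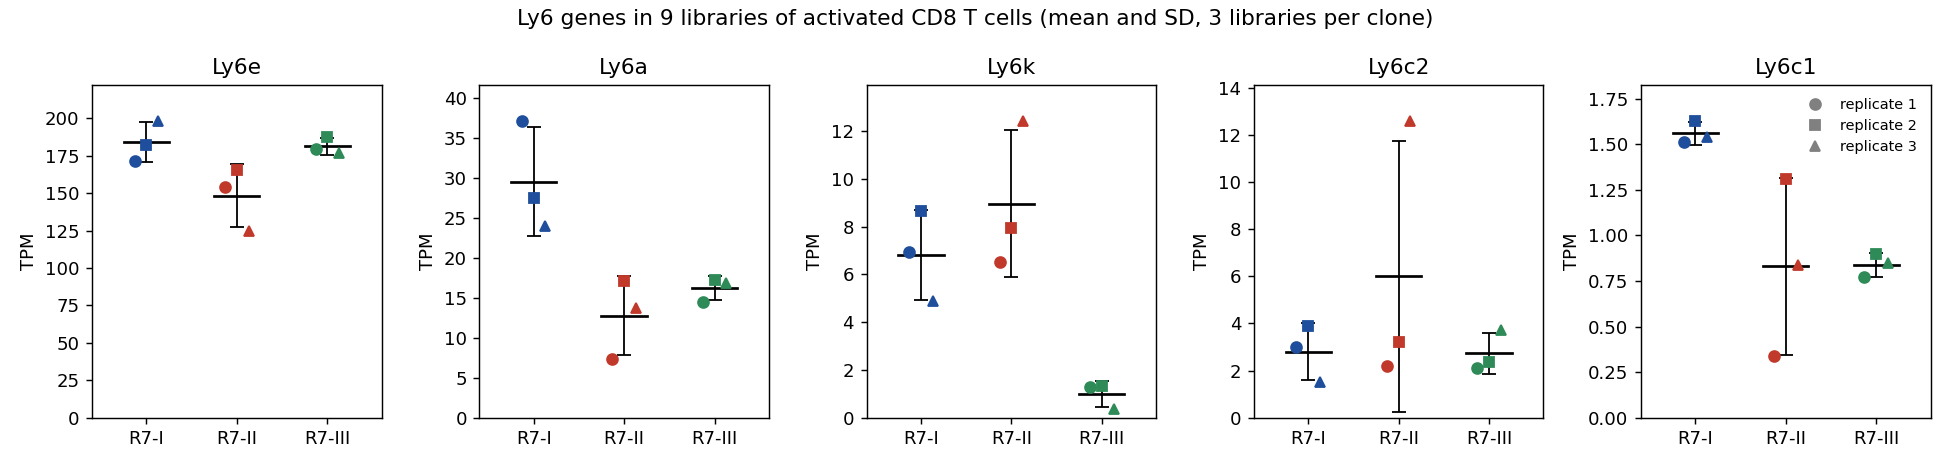
Level in TPM (vertical axis, starting at 0, with its own scale for each gene) of the 5 Ly6 genes in the 9 libraries, grouped by clone on the horizontal axis. Points are libraries, and bars are the mean and SD of 3 libraries. Ly6k lies between 0.38 and 1.33 TPM in R7-III and between 4.9 and 12.45 TPM elsewhere, Ly6a and Ly6c1 are highest in R7-I, Ly6e is lowest in R7-II, and the Ly6c2 mean of R7-II rests on 1 library at 12.62 TPM.

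Ly6k showed the widest separation of the clones. Its level was 6.93, 8.65 and 4.9 TPM in the R7-I libraries, 6.54, 7.93 and 12.45 TPM in R7-II, and 1.28, 1.33 and 0.38 TPM in R7-III (replicates 1, 2 and 3). Every R7-III library was below every library of the other 2 clones, while R7-I and R7-II overlapped. The means were 6.83 ± 1.88, 8.97 ± 3.09 and 0.997 ± 0.535 TPM (SD, n = 3), so that R7-II stood 9.0-fold and R7-I 6.85-fold above R7-III. On the log2(TPM + 1) scale the difference was 2.32 (standard error 0.350) for R7-II minus R7-III and −1.98 (0.322) for R7-III minus R7-I. With any 1 library left out, these ranged from 2.07 to 2.50 and from −2.17 to −1.73. Because R7-III was near 1 TPM, the size of the log2 difference depended on the pseudocount, from 1.20 with a pseudocount of 5 to 3.15 with 0.1 for R7-II minus R7-III. R7-II minus R7-I was 0.33 (0.323), about as large as its own standard error.

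Ly6a, the Sca-1 gene, was highest in R7-I. Its level was 37.18, 27.44 and 24.02 TPM in the R7-I libraries, 7.37, 17.12 and 13.75 TPM in R7-II, and 14.46, 17.25 and 16.85 TPM in R7-III. The R7-I libraries all lay above the other 6, whose ranges overlapped. The means were 29.6 ± 6.83, 12.8 ± 4.95 and 16.2 ± 1.51 TPM (SD, n = 3), and R7-I was 2.32-fold above R7-II and 1.83-fold above R7-III. The log2(TPM + 1) difference was −1.20 (standard error 0.379) for R7-II minus R7-I and −0.81 (0.196) for R7-III minus R7-I. For R7-II minus R7-III it was −0.39 (0.342) with all libraries and −0.07 without R7-II replicate 1, the library with the lowest level.

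Ly6c1 was low everywhere, with 1.51, 1.63 and 1.54 TPM in the R7-I libraries, 0.34, 1.31 and 0.84 TPM in R7-II, and 0.77, 0.9 and 0.85 TPM in R7-III. The 3 R7-I libraries were above the other 6, and R7-II spanned the whole range of R7-III. The means were 1.56 ± 0.0625, 0.830 ± 0.485 and 0.840 ± 0.0656 TPM (SD, n = 3), a 1.88-fold and a 1.86-fold difference between R7-I and the other clones. On the log2(TPM + 1) scale R7-III minus R7-I was −0.48 (standard error 0.036) and R7-II minus R7-I was −0.52 (0.229), the latter −0.31 without R7-II replicate 1. R7-II minus R7-III was −0.04 (0.230) and turned to 0.16 without that library. At this level the pseudocount set much of the size, and with 0.1 in place of 1 the first 2 differences became −0.82 and −0.99.

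Ly6c2 did not separate the clones. Its level was 3, 3.9 and 1.51 TPM in the R7-I libraries, 2.2, 3.2 and 12.62 TPM in R7-II, and 2.13, 2.36 and 3.74 TPM in R7-III. R7-II replicate 3 was far above the other 8 libraries, which all lay between 1.51 and 3.9 TPM. The mean of R7-II was 6.01 ± 5.75 TPM against 2.80 ± 1.21 in R7-I and 2.74 ± 0.871 in R7-III (SD, n = 3). The log2(TPM + 1) difference of R7-II from R7-I was 0.63 (standard error 0.702) with all libraries and 0.0007 without R7-II replicate 3. From R7-III it was 0.63 (0.667), and −0.0056 without that library.

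The sum of Ly6c1 and Ly6c2, which depends less on how reads were divided between them but still weights each read by the length of the transcript it was given to, was 4.51, 5.53 and 3.05 TPM in the R7-I libraries, 2.54, 4.51 and 13.5 TPM in R7-II, and 2.90, 3.26 and 4.59 TPM in R7-III. All 3 clones overlapped in the sum, with means of 4.36 ± 1.25, 6.84 ± 5.82 and 3.58 ± 0.890 TPM (SD, n = 3). Ly6c1 made up 29.5 to 50.5% of the sum in R7-I, 6.24 to 29.1% in R7-II and 18.5 to 27.6% in R7-III. The higher Ly6c1 of R7-I was seen in Ly6c1 and not in the summed TPM of the pair.

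Ly6e was the most abundant member and varied the least. Its level was 171.69, 182.12 and 198.49 TPM in the R7-I libraries, 154.32, 165.53 and 124.9 TPM in R7-II, and 179.53, 187.48 and 176.73 TPM in R7-III. The 3 R7-II libraries were below the other 6, and R7-I and R7-III overlapped. The means were 184 ± 13.5, 148 ± 21.0 and 181 ± 5.58 TPM (SD, n = 3), so that R7-I was 1.24-fold and R7-III 1.22-fold above R7-II. On the log2(TPM + 1) scale R7-II minus R7-I was −0.32 (standard error 0.136) and R7-II minus R7-III −0.30 (0.124), which became −0.20 and −0.18 without R7-II replicate 3.

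Between R7-II and R7-I, 3 of the 5 genes (Ly6a, Ly6c1 and Ly6e) were lower in every R7-II library and none was higher in every one. Across all genes tested 71.2% did not overlap between these clones, 50.6% with R7-II higher and 20.6% with R7-II lower. Between R7-II and R7-III, Ly6k was higher and Ly6e lower without overlap, against 46.4% and 24.3% of all genes in those directions and 70.6% in either. Between R7-III and R7-I, 3 genes (Ly6a, Ly6c1 and Ly6k) were lower without overlap, where 41.9% of all genes did not overlap and 12.4% were lower in R7-III. These counts describe genes that were picked on the same values and nothing is read from them. The whole table was not centred on 0 in these comparisons, and the median log2(TPM + 1) difference over all genes was 0.17 for R7-II minus R7-I, 0.12 for R7-II minus R7-III and 0.04 for R7-III minus R7-I. Rescaling every library by the median of its ratios to the average library took these medians to within 0.01 of 0 and left the 5 genes with the same overlaps. After rescaling, Ly6e was −0.49 in R7-II minus R7-I and −0.42 in R7-II minus R7-III, and Ly6a −1.37 in R7-II minus R7-I.

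**Figure D2:**
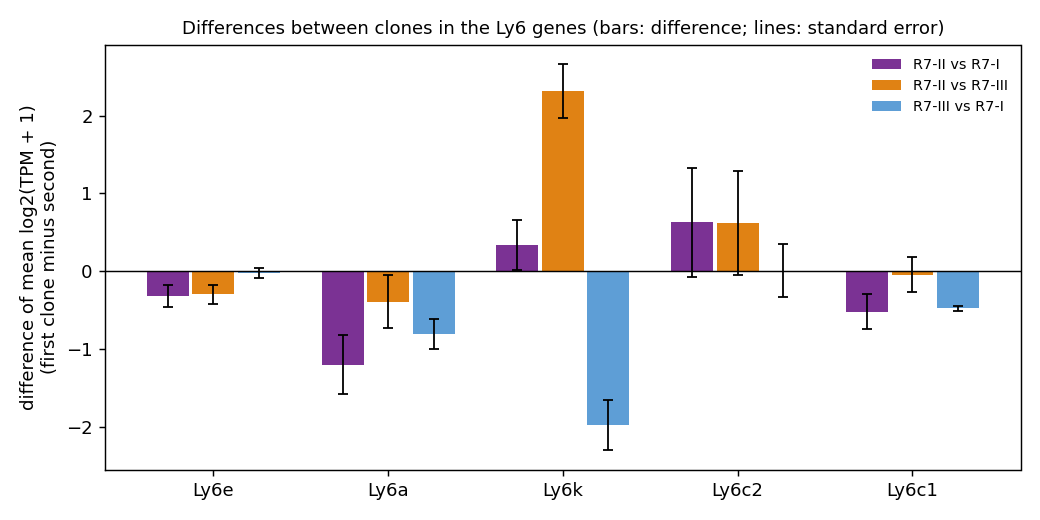
Difference between clones in mean log2(TPM + 1) (vertical axis, first clone minus second) for each Ly6 gene (horizontal axis). Bars are differences and lines their standard errors from 3 libraries per clone. The longest bars are Ly6k at 2.32 for R7-II minus R7-III and −1.98 for R7-III minus R7-I, and the error lines of Ly6c2 cover 0 in each comparison.

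The genes with the most similar profile over the 9 libraries were sought for each member, as the smallest root mean square difference of centred log2(TPM + 1) values. For Ly6a this was Cxcl10, an interferon-induced chemokine gene, at 0.206 where the spread of Ly6a itself was 0.591. Cxcl10 was 3.33 TPM in the R7-I libraries, 1.11 in R7-II and 1.99 in R7-III. The next was Mthfd2l at 0.307, which encodes a mitochondrial folate enzyme. For Ly6c1 they were Tnfrsf9, which encodes the costimulatory receptor 4-1BB (507, 345 and 378 TPM in R7-I, R7-II and R7-III), at 0.143, and Fam174b at 0.146, beside a spread of 0.302.

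For Ly6k the most similar genes were Pnp2, a purine nucleoside phosphorylase gene (5.29, 4.89 and 0.453 TPM in R7-I, R7-II and R7-III), at 0.427, and Gcm1, a transcription factor known from the placenta (1.90, 2.37 and 0.0767 TPM), at 0.447, beside a spread of 1.08. For Ly6c2 they were Capn11 at 0.284 and Ifitm1 at 0.288, beside a spread of 0.663, and for Ly6e they were Dyrk3 at 0.0717 and Trnau1ap at 0.0742, beside 0.184. These are descriptions over 9 libraries from the same 3 clones.

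Cells of other types were looked for with marker lists, because Ly6C is also carried by monocytes. The 7 CD8 T cell genes (Cd3d, Cd3e, Cd3g, Cd8a, Cd8b1, Lck and Cd2) summed to 1821 to 1851 TPM in the R7-I libraries, 2671 to 2692 in R7-II and 1972 to 2045 in R7-III, so the sorted identity was present in all libraries. The 11 measured of 12 myeloid markers summed to 15.8 to 19.7 TPM in R7-I and 18.3 to 19.9 in R7-III, and to 68.0, 49.3 and 111 TPM in R7-II replicates 1, 2 and 3. R7-II lay wholly above R7-I in 8 of the 11 and above R7-III in 10, beside 50.6% and 46.4% of all genes tested. These shares cover only genes above the low-value minimum, which 8 of the 11 passed. Csf1r, Itgam, Emr1, S100a8 and S100a9 passed it only through R7-II libraries. Count and share are thus on unlike sets, as they are below for plasma cell genes (4 of 6 above the minimum) and CD4 T cell genes (2 of 4). Of the 11, 9 were highest in R7-II replicate 3, the library with 12.62 TPM of Ly6c2. Lyz2, the macrophage lysozyme gene, was 28.23, 13.8 and 56.74 TPM in R7-II and at most 2.43 TPM elsewhere. Of the other lists, NK markers summed to at most 0.17 TPM with 2 of 4 listed at 0 in all libraries. The 5 plasmacytoid dendritic cell genes were mixed: their sum, mostly Bst2, was 181 to 214 TPM in R7-I, 104 to 177 in R7-II and 201 to 226 in R7-III, and the defining gene Siglech was at most 0.05 TPM in any library. Ccr9, a chemokine receptor gene also used by T cells, was 17.41, 10.81 and 19.76 TPM in R7-II and at most 1.77 TPM elsewhere, and Spib was 2.31 to 4.23 TPM in R7-II and at most 1.5 TPM elsewhere. Plasma cell sums lay between 65.2 and 78.3 TPM, of which Xbp1 made up 62.78 to 72.92 TPM. R7-II lay wholly above R7-I in 2 of the 6 measured plasma cell genes and above R7-III in 3, beside the same shares of all genes. Among them was Mzb1 at 3.10, 1.25 and 2.70 TPM in R7-II and at most 0.85 TPM elsewhere. CD4 T cell sums were 3.36 to 4.11 TPM in R7-I, 4.03 to 5.81 in R7-II and 5.62 to 8.01 in R7-III. Most of the sum was Cd40lg in R7-I and R7-III. R7-II was wholly above R7-I in 3 of the 4 genes and above R7-III in 2, beside the same shares of all genes. Cd40lg was wholly below R7-III, at 1.28 to 2.87 TPM in R7-II against 4.28 to 6.83 TPM. Cd4 itself was 0.95 to 1.00 TPM in R7-II and at most 0.53 TPM elsewhere. Endothelial sums were 21.1 to 26.5 TPM in R7-II and 3.34 to 5.65 TPM elsewhere, with 1 of the 4 genes above the minimum and the defining gene Cdh5 listed at 0 in all 9 libraries. Erythroid sums were 22.1 to 73.2 TPM in the R7-I libraries, 1.25 to 15.1 in R7-II and 8.99 to 25.4 in R7-III. In such bulk RNA, fewer cells of a type and less RNA per cell cannot be told apart, and the part of other cells in the Ly6 values was not tested.

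**Figure D3:**
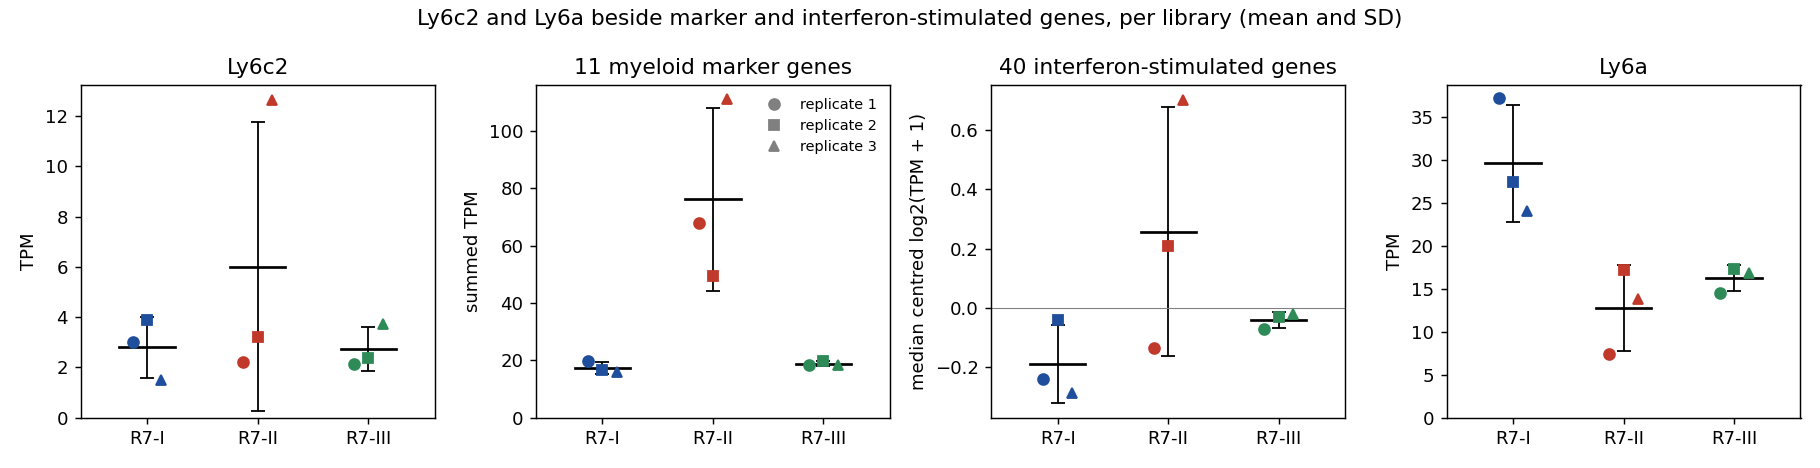
Ly6c2 and Ly6a in TPM, the summed TPM of 11 myeloid markers, and the median centred log2(TPM + 1) of 40 interferon-stimulated genes (vertical axes, in the panel order Ly6c2, myeloid, interferon-stimulated, Ly6a) by clone. Points are libraries, and bars are the mean and SD of 3. R7-II replicate 3 is highest for Ly6c2 (12.62 TPM), for the myeloid sum (111 TPM) and for the interferon-stimulated genes (0.70), while for Ly6a it lies at 13.75 TPM, inside the range of its clone.

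Ly6a and Ly6e respond to interferon, so the interferon pathway was examined from a list of 18 genes, all of them above the low-value minimum. This list and the lists below were chosen with earlier results of these data known. Their counts and p-values are therefore descriptive and are not independent support. Between R7-II and R7-I, limma with Benjamini-Hochberg adjustment called 11 higher and 2 lower at an adjusted p of 0.01, 72.2% of the list. Of all genes 56.1% were called in this comparison, 40.6% higher and 15.5% lower, and the median log2 change of the list was 0.50. Ifng, the gene of interferon gamma itself, fell in R7-II: it was 25.22, 36.91 and 47.53 TPM there, 153.39, 160.46 and 132.79 TPM in R7-I, and 121.18, 117.02 and 127.71 TPM in R7-III. All R7-II libraries were below the other 6. The log2 change was −2.04 against R7-I (limma adjusted p = 2.85e-06) and −1.76 against R7-III (adjusted p = 8.37e-06). Irf8, an interferon-inducible transcription factor gene, fell with it, with log2 changes of −1.48 and −1.54.

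Other pathway genes rose in R7-II. Socs3, a feedback inhibitor of cytokine signalling, rose by a log2 change of 2.35 against R7-I and 2.61 against R7-III, with 28.84, 19.16 and 26.02 TPM in R7-II and at most 4.53 TPM in the other libraries. The kinase gene Jak1 rose by 0.62 and 0.66, and the receptor gene Ifngr2 by 1.09 against R7-III. Irf7, the transcription factor gene of the type I interferon response, was 12.33, 22.93 and 40.11 TPM in R7-II and at most 13.83 TPM elsewhere, and rose by 1.45 against R7-I (limma adjusted p = 0.00179), a call lost with quantile normalization (adjusted p = 0.0129). Between R7-II and R7-III, 7 pathway genes were called higher and 2 lower (50% of the list, beside 53.6% of all genes, 35.6% higher and 18% lower), with a median change of 0.30. Between R7-III and R7-I only Tyk2 was called, with a log2 change of 0.30 (limma adjusted p = 0.00112), beside 8.41% of all genes, 6.96% higher and 1.45% lower. Without R7-II replicate 1 that count was 2. Rescaling changed the split between R7-II and R7-I from 11 higher and 2 lower to 9 and 3.

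Of 41 interferon-stimulated genes, 40 passed the low-value minimum. Between R7-II and R7-I, 14 were called higher and 3 lower (42.5%, beside 56.1% of all genes, median change 0.37), and between R7-II and R7-III, 10 higher and 6 lower (40%, beside 53.6% of all genes, median change 0.33). Both shares were below those of all genes. After rescaling these splits were 9 and 5, and 7 and 7. The counts depended on single libraries: the first was 10, 11 and 10 without R7-I replicate 1, 2 or 3, and the second was 9, 9 and 8 without R7-III replicate 1, 2 or 3. Without R7-II replicate 1, both counts were 23. Between R7-III and R7-I, only Trim25 was called (2.5%, beside 8.41% of all genes, median change 0.17), with a log2 change of 0.45 (limma adjusted p = 0.00295). That call was lost when R7-I replicate 1 or 3 or any 1 R7-III library was left out (adjusted p 0.0134 to 0.0179), and 3 genes were called without R7-II replicate 1.

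The interferon-stimulated genes did not move as 1 block. Samhd1, which encodes a deoxynucleotide hydrolase, rose in R7-II by a log2 change of 2.08 relative to R7-I and 1.72 relative to R7-III. Igtp, an immunity-related GTPase gene, rose by 0.70 and 0.44. Iigp1, of the same GTPase group, fell by 1.53 and 1.55, from 13.44 to 17.54 TPM in the other 6 libraries to 3.18, 5.82 and 5.28 TPM in R7-II. Psmb8, an immunoproteasome subunit gene and the most abundant of the list, was 205 ± 22.1 TPM in R7-II, 184 ± 17.9 in R7-I and 211 ± 12.0 in R7-III (SD, n = 3) and was not called in any comparison.

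The R7-II libraries themselves differed in these genes. The median centred log2(TPM + 1) of the 40 genes was −0.14, 0.21 and 0.70 in R7-II replicates 1, 2 and 3, while it was −0.29 to −0.04 in R7-I and −0.07 to −0.02 in R7-III. R7-II replicate 1 was the lowest of its clone in 36 of the 40 genes, and R7-II replicate 3 was the highest of all 9 libraries in 28. Ly6a and Ly6c1 were also lowest in R7-II replicate 1, but within R7-II they were highest in replicate 2 and not in replicate 3. Ly6c2 and Ly6k rose from R7-II replicate 1 to 2 to 3, in the order of that median. Ly6e had its lowest value of all in R7-II replicate 3. The part of the interferon-stimulated program in these Ly6 values was not tested.

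Ifit3 and Ifit1, antiviral genes, showed the same spread. Ifit3 was 2.90, 15.16 and 26.58 TPM in R7-II and at most 1.91 TPM elsewhere, and Ifit1 was 3.06, 9.24 and 12.96 TPM in R7-II and at most 2.89 TPM elsewhere. For both, R7-II did not overlap the remaining libraries, with log2 changes of 2.21 and 1.39 against R7-I (limma adjusted p = 0.00365 and 0.00530) and 2.15 and 1.41 against R7-III (adjusted p = 0.00447 and 0.00511). These calls were not firm. Against R7-I, Ifit3 was above 0.01 when R7-II replicate 2 or any 1 R7-I library was left out (adjusted p 0.0111 to 0.0173), and Ifit1 when R7-II replicate 2 or 3 or R7-I replicate 1 or 3 was (0.0181 to 0.0236). Against R7-III both were above 0.01 with R7-II replicate 2 or 3 or any 1 R7-III library left out (0.0126 to 0.0227).

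Bst2, which encodes the antiviral surface protein tetherin and, like the Ly6 proteins, carries a GPI anchor, was 81.81, 141.06 and 151.69 TPM in R7-II against 176.01 to 222.06 TPM in the other libraries. All R7-II libraries were below the others, with log2 changes of −0.67 (limma adjusted p = 0.00757) and −0.77 (adjusted p = 0.00361). The first call was lost when any 1 R7-I or R7-III library was left out (adjusted p 0.0116 to 0.0312) and the second when any 1 R7-III library was (0.0105 to 0.0162).

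The rest of the Ly6 family, as a list of 43 further gene symbols, was mostly listed at 0 in these cells. Of 34 that were in the table, 22 were listed at 0 in all 9 libraries and 6 passed the low-value minimum. Between R7-II and R7-I, 2 of these 6 were called, both higher in R7-II (33.3%, beside 56.1% of all genes and 40.6% called higher), with a median change of 0.56. The same counts held between R7-II and R7-III (beside 53.6% and 35.6%), with a median of 0.65. Of the 6, Lynx1 and Ly6i passed the minimum only through R7-II libraries, so these counts and medians were partly fixed by that filter. Between R7-III and R7-I, where 8.41% of all genes were called, limma called 0 and 1 had an unadjusted p below 0.05, with a median of −0.03.

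The called genes were Ly6d and Lynx1. Ly6d, which marks B lineage progenitors and B cells, was 0.64, 0.99 and 1 TPM in the R7-I libraries, 9.26, 3.62 and 9.89 TPM in R7-II, and 0.89, 0.68 and 1.28 TPM in R7-III. The R7-II values did not overlap those of the remaining 6 libraries, with log2 changes of 2.10 (standard error 0.279, limma adjusted p = 6.92e-05) and 2.05 (0.279, adjusted p = 8.75e-05). The 6 measured of 7 B cell markers summed to 66.8, 31.9 and 51.1 TPM in R7-II replicates 1, 2 and 3, and elsewhere to 7.66 to 14.3 TPM (R7-I) or 4.73 to 6.86 TPM (R7-III), and all 6 were higher in every R7-II library than elsewhere. Within R7-II, replicate 2 had the lowest Ly6d and the lowest B cell sum, and also the lowest myeloid sum (49.3 TPM). Ly6d was highest in replicate 3, but the B cell sum was highest in replicate 1. The part of B cells in the Ly6d value was not tested.

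**Figure D4:**
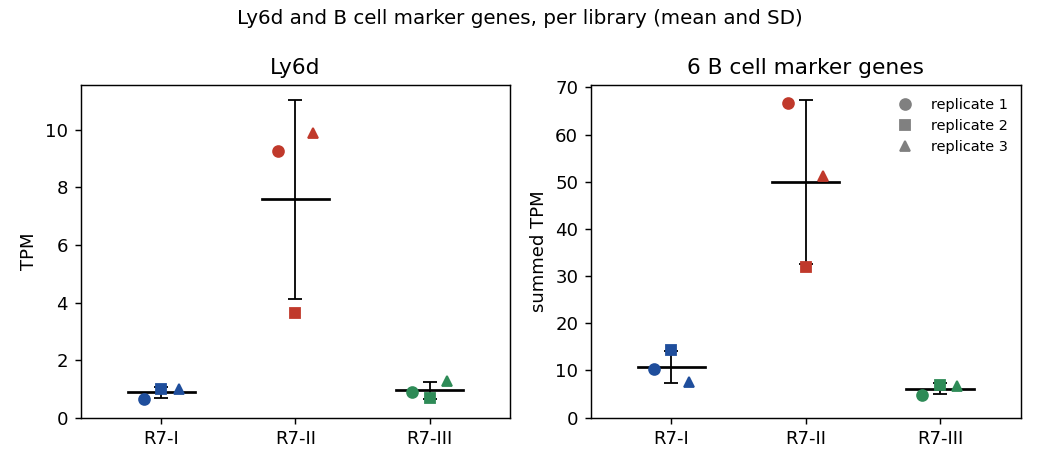
Ly6d in TPM (left) and the summed TPM of 6 B cell marker genes (right) on vertical axes that start at 0, by clone. Points are libraries, and bars are the mean and SD of 3. In R7-II, Ly6d was 3.62 to 9.89 TPM and the B cell sum 31.9 to 66.8 TPM. Replicate 2 was lowest in both panels, while Ly6d was highest in replicate 3 and the sum in replicate 1. Ly6d stayed at or below 1.28 TPM in the other clones.

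Lynx1, whose product modulates nicotinic acetylcholine receptors, was 0.78, 0.7 and 1.19 TPM in R7-II and at most 0.17 TPM elsewhere, with log2 changes of 0.73 (limma adjusted p = 8.47e-04) and 0.76 (adjusted p = 7.10e-04). The first of these was lost with quantile normalization (adjusted p = 0.0131). Lynx1 passed the low-value minimum only through R7-II replicate 3, so the filter favoured this direction. Ly6i, whose coding sequence is 86.3% identical to that of Ly6a, was 0.57, 1.06 and 2.53 TPM in R7-II and at most 0.52 TPM elsewhere, and did not pass (adjusted p = 0.0245 and 0.0212) unless R7-II replicate 1 was left out (0.00347 and 0.00318). Plaur (urokinase receptor), Lypd6b and Ly6g5b were between 0.72 and 8.27 TPM in all libraries and were not called, except that Lypd6b was called lower in R7-II than in R7-III with quantile normalization (−0.48, adjusted p = 0.00680).

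The cluster's surroundings were examined as the genes starting within 500 kb of a member. RefSeq lists 47 such genes, of which 22 were in the table and 6 passed the low-value minimum: Arc, Jrk, Them6, Lynx1, Ly6d and Ly6i. Besides Ly6d and Lynx1, limma called Arc, an immediate early gene, lower in R7-II by 0.76 against R7-I (adjusted p = 6.34e-04) and by 0.97 against R7-III (adjusted p = 1.31e-04). Jrk was called higher in R7-II, by 0.26 against R7-I (adjusted p = 0.00981), and Them6 lower in R7-II, by 0.20 against R7-III (adjusted p = 0.00859). None of the 6 was called between R7-III and R7-I, where the smallest adjusted p was 0.0817 and 8.41% of all genes were called. For R7-II, 56.1% of all genes were called against R7-I and 53.6% against R7-III, so nothing is read from these calls. Neighbours differed in direction in the comparisons with R7-II. Arc, Jrk and Them6 were not refitted under other settings, and the Jrk difference lies close to the 0.17 median of all genes.

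Promoter windows of 300 bases around 2 RefSeq starts each of Ly6c1 and Ly6c2 were searched on both strands for TTCNNNGAA (GAS, the site of interferon gamma signalling), for a pair of GAAA runs 2 bases apart (ISRE, the site of type I interferon signalling) and for TGANTCA (AP-1). Matches were counted separately for each motif. The 2 windows of each gene overlapped, so the 4 windows are not separate sequences. None of the 4 windows held a match, where 8.30%, 3.44% and 7.81% of 32851 promoters did. This says only that these letters are not in these windows.

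GPI-anchored proteins need a shared set of enzymes to be displayed. Of 29 such genes, 28 were in the table and 27 passed the low-value minimum. Between R7-II and R7-I, 12 were called higher and 1 lower (48.1%, beside 56.1% of all genes, median change 0.19), but after rescaling the split was 6 higher and 7 lower. Between R7-II and R7-III, 7 were called higher and 4 lower (40.7%, beside 53.6% of all genes, median change 0.11), with 4 and 6 after rescaling and 7 in all without R7-III replicate 1 or 3. Mppe1 and Pgap3, which remodel the anchor after its attachment, rose in R7-II, Mppe1 by 0.74 and 0.66 and Pgap3 by 0.70 and 0.64. The enzyme gene Pigv rose by 0.62 and Pigh by 0.55 against R7-I, the latter lost with quantile normalization (adjusted p = 0.0728), and Pigo by 0.53 against R7-III. Gpaa1, a subunit of the transamidase that attaches the anchor, fell in R7-II by 0.53 against R7-III, with 39.25, 42.69 and 41.28 TPM in R7-II and at least 48.46 TPM elsewhere. Pigt, Dpm2 and Pigs, the most abundant of the list, were called higher in R7-II by 0.25, 0.28 and 0.16 against R7-I, but rescaling ended all 3 calls (adjusted p = 0.115, 0.0284 and 0.806) and turned Pigs to −0.01. The Pigs call was also lost without R7-I replicate 1 or 2 or R7-II replicate 3 (adjusted p 0.0102 to 0.0164).

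Between R7-III and R7-I, 3 enzyme genes were called higher (Gpaa1 by 0.24, Pigp by 0.26 and Pigl by 0.38) and Pigw lower (−0.31), 14.8% of the list beside 8.41% of all genes, with a median change of 0.09. Rescaling left 1 call. The count was 0 with R7-I replicate 1 or any 1 R7-III library left out, 1 without R7-I replicate 2 or 3 and 2 without R7-II replicate 1.

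Other surface proteins of T cells, most but not all of them GPI-anchored, were followed in a list of 21 gene symbols. It holds Folr4 under 2 symbols. Of the list, 20 symbols were in the table, 2 of these were listed at 0 in all libraries and 12 passed the low-value minimum. The list is called other GPI-anchored genes below. Between R7-II and R7-I, 7 were called higher and 2 lower (75.0%, beside 56.1% of all genes, median change 0.46), with 5 and 3 after rescaling. Between R7-II and R7-III, 5 were called higher and 2 lower (58.3%, near the 53.6% of all genes, median change 0.46). Cd55, the complement regulator, rose most, from 0.88 to 1.78 TPM in the other 6 libraries to 13.89, 7.73 and 13.47 TPM in R7-II, with log2 changes of 2.37 (limma adjusted p = 3.41e-06) and 2.22 (adjusted p = 5.52e-06). Art2b, a T cell ADP-ribosyltransferase gene, rose by 1.10 and 1.00, but it passed the minimum only through the R7-II libraries. H60b, a ligand gene of the receptor NKG2D whose product spans the membrane without that anchor, rose by 0.90 and 0.88. Folr4, a folate receptor family gene, rose by 1.18 against R7-III.

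Sema7a, a GPI-anchored semaphorin gene, was ordered R7-I, R7-III, R7-II without overlap: its R7-I libraries held 73.51, 70.84 and 67.61 TPM, its R7-III libraries 47.19, 47.83 and 55.44 TPM, and its R7-II libraries 34.20, 30.00 and 34.25 TPM. Limma called it lower by 1.09 in R7-II and by 0.49 in R7-III, each against R7-I (the latter with adjusted p = 0.00110). Cd160, the other gene of this list called between R7-III and R7-I, was 0.25 higher in R7-III (adjusted p = 0.00428), a call lost when any 1 R7-I or R7-III library was left out (0.0134 to 0.0236). Those 2 of 12 (16.7%, beside 8.41% of all genes) stand beside a median change of 0.02. Rescaling gave 2 calls, both lower, and the count was 1 without R7-I replicate 1 or 2 or with any 1 R7-III library left out. Cd52, Prnp and Thy1 were the most abundant. Cd52 was called higher in R7-II by 0.29 against R7-I (limma adjusted p = 0.00103), which rescaling ended (0.171). Prnp and Thy1 were not called. Against R7-III the adjusted p was 0.0124 for Thy1 and 0.0798 for Prnp, and these became 0.00398 without R7-II replicate 2 and 0.00547 without R7-III replicate 3.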

How the data were processed

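PolyA RNA libraries were made with the TruSeq mRNA kit v2, which does not mark strand. The authors aligned single-end reads of 100 bases and estimated gene levels with RSEM (1.2.11 by the submitters' processing notes) on mm10 RefSeq genes, and they deposited 1 table of TPM values per gene symbol for 9 libraries. Those notes also name DESeq2 1.8.1. Read counts were not used here. The study's methods give a typical number of reads for a sample, but TPM keeps no depth, so the depth of each library is unknown and no counting interval is given. Which alignment program RSEM ran is not stated in the methods or labels read here.

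Columns were matched to samples by name. Genes whose highest TPM was above 1 (11330) were kept, and their log2(TPM + 1) values entered 1 limma 3.58.1 fit of all 9 libraries in R 4.3.3 (lmFit, eBayes with trend). Tests were two-sided, p-values were adjusted by Benjamini-Hochberg across those genes, and the threshold was 0.01. The study tested counts, and limma stands in because TPM are not counts. The fit was tested on simulated data. Standard errors of the 5 Ly6 genes came from their own libraries.

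The Ly6 genes and all gene lists were chosen with earlier results of these data known, so no test is given for the 5 genes. For the same reason the counts and p-values of the lists only describe these data. Named from each list were the 3 genes with the highest mean TPM and, per comparison, up to 4 genes with the largest change among those called. All other Ly6 family genes above the minimum, the called neighbours within 500 kb and the 2 genes most similar to each member were named too. For 1 gene that this rule selects, the result is not reported here.

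Coding sequences were taken from GENCODE M21 (GRCm38, the same assembly as mm10) and aligned with Biopython 1.88 in Python 3.11.15. Positions and promoters are from RefSeq. Promoters were given for 2 of the 5 members. Alternatives were pseudocounts of 0.1 and 5, no minimum, TPM of at least 1 in every library, median-of-ratios and quantile scaling, no trend, only the clones compared, a replicate block, each library left out and a threshold of 0.05.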

Additional observations from a re-analysis of the deposited data

How the results depend on the processing

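For the 5 Ly6 genes, 13 alternatives were run for each of 15 differences. In 187 of the 195 values the difference moved by less than the larger SD of the 2 clones compared. The exceptions were from the pseudocount (Ly6k and Ly6c1) and from quantile scaling (Ly6c1, −0.59 for R7-III minus R7-I). That count overstates stability. In 3 of the 13 alternatives the library left out was of the clone not compared, so the value could not move. Ly6c2 in R7-II minus R7-I went from 0.63 to 0.0007 without R7-II replicate 3 and still counted as not moved, its SD being wide. Low values limit what can be said of Ly6c1 and of Ly6k in R7-III, and TPM gives no depth to put an error on them.

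For the list counts, 239 of 285 values stayed within 1.5 times the count reported. Ly6 family calls between R7-II and R7-I were 0 with TPM of at least 1 in every library and 1 with quantile normalization, and those between R7-II and R7-III were 0 with that minimum. That minimum removed Ly6d and Lynx1, the genes called, so neither could be called under it. Interferon pathway calls were 14 between R7-II and R7-III at a threshold of 0.05, and 2 between R7-III and R7-I with only the clones compared. Interferon-stimulated calls were 10 in both comparisons with R7-II when no minimum was used and 10 with quantile normalization against R7-I, and between R7-III and R7-I 0 with quantile normalization, 0 without trend, 4 with only the clones compared and 4 at 0.05. Anchor enzyme calls between R7-III and R7-I were 1 without the minimum, 1 with median-of-ratios scaling, 1 with quantile normalization and 0 without trend. Other GPI-anchored calls were 11 between R7-II and R7-III at 0.05, and 1 between R7-III and R7-I with quantile normalization and 1 without trend. When libraries were left out singly, the pathway count between R7-III and R7-I was 1 to 2. The interferon-stimulated counts were 10 to 23 and 8 to 23 in R7-II against R7-I and R7-III, and 0 to 3 between R7-III and R7-I. The enzyme counts were 7 to 10 between R7-II and R7-III and 0 to 4 between R7-III and R7-I, and the count of other GPI-anchored genes was 1 to 3 in the last. The causes were not tested. Of the named genes, 124 of 1732 values lost a call, 19 gained one, and Pigs turned to −0.0122 with median-of-ratios scaling. That scaling took the share of calls that were higher from 72.4 to 47.7% (R7-II against R7-I), from 66.4 to 47.9% (R7-II against R7-III) and from 82.8 to 59.0% (R7-III against R7-I).

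Replicate numbers were tried as a block. Libraries with the same number did not deviate together (correlations of −0.045 to 0.089), so they share only a number. With the block, limma called 6015, 5786 and 733 genes in the 3 comparisons in place of 6358, 6077 and 953, and no list count moved by more than 1.5 times.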
